A study of Mus musculus with 8 samples.

Results

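Dendritic cells are the antigen-presenting leukocytes that start T cell responses, and the 10 genes described here are transcripts by which they and their subsets are usually recognised. The genes are Flt3, Xcr1, Clec9a, Cd209a, Itgax, Zbtb46, Batf3, Clec10a, Siglech and Irf8, taken by name from a table of 54532 genes, and all 10 averaged 10 counts or more over the 8 libraries. They were measured by RNAseq in GFP+ (mG+) cells sorted from 8-month-old females. EC-Tert-KO mice (KO: Tie2e-cre; TERTfl/fl; mTmG) were compared with littermates carrying Tie2e-cre, TERT+/+ and mTmG (WT), so Cre and the reporter were present in both genotypes. Cells came from subcutaneous (inguinal) adipose tissue (SAT) of mice given high-fat diet (HFD) between months 1 and 8. The other samples were SAT, visceral (gonadal) adipose tissue (VAT) and gastrocnemius muscle of chow-fed mice. The 8 libraries form 4 pairs, each of 1 WT and 1 KO library. The mG label marks every cell whose lineage has expressed Cre from the Tie2e promoter, and the sources used here do not say whether mice were pooled or gave more than 1 tissue.

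Conventional dendritic cells arise in the bone marrow from precursors that need FLT3 ligand, and reach adipose tissue and muscle through the blood. The cDC1 subset depends on the transcription factors IRF8 and BATF3, carries XCR1 and CLEC9A and presents antigen from dead cells to CD8 T cells. The cDC2 subset, which in mice is marked by lectins such as CD209a and CLEC10A, mainly primes CD4 T cells, while plasmacytoid dendritic cells (pDC), marked by Siglec-H, are specialised for type I interferon. None of these genes is confined to dendritic cells: Itgax and Clec10a are also transcribed in macrophages, Irf8 in B cells and macrophages, and Zbtb46 in endothelial cells.

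Library totals ran from 6214269 to 18855772 counts, and 16034 to 24688 genes had a count. Tert, the targeted gene, had 114 counts in the WT library of SAT on HFD against 0 in its KO partner, 70 against 11 in SAT on chow, and 24 against 7 in muscle. In VAT it had 3 counts in the library labelled WT and 9 in the library labelled KO, a log2 difference of 0.91 with a 95% counting interval of -1.02 to 3.5, so Tert does not separate the VAT labels. The endothelial receptor gene Tek had 1.28 to 25.5 RPKM (counts per kilobase of gene length, scaled to a library of 1000000) over the libraries, and the pan-leukocyte gene Ptprc (CD45) had 67.6 to 135 RPKM, so leukocyte transcripts were abundant in every sorted sample. Both libraries of SAT on HFD were sparse, with 16076 (WT) and 16034 (KO) genes counted against 19802 or more in the other 6. Of the 4496 genes with 33 to 132 counts in the WT library of that pair, 396 (8.81%) had 0 counts in the KO library, against 0.205% to 0.325% in the other 3 pairs. In the opposite direction, 771 of 3957 genes (19.5%) with as many counts in the KO library had 0 in the WT library, against 7.43% in SAT on chow, 0.455% in VAT and 0.169% in muscle. The WT library of SAT on chow had 19802 genes counted, the fewest of the other 6, though its total of 18855772 was the highest.

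The positions and sequences behind the 10 transcripts are given first, because they bear on how reliably each could be counted. Cd209a lies at chr8:3743397-3748984 on the minus strand and Clec10a at chr11:70156197-70170834 on the plus strand (GRCm38). The other members are on chromosomes 1 (Batf3), 2 (Zbtb46), 5 (Flt3), 6 (Clec9a), 7 (Itgax and Siglech), 8 (Irf8) and 9 (Xcr1). Of all 50-base windows in the longest coding transcript of Clec10a, 10.6% also occur in transcripts of its neighbour Mgl2, and 9.61% of those of Itgax occur in Itgad. Clec9a overlaps Clec1b on the same strand and shares 4.19% of its windows with it. Xcr1 and Siglech share 1.43% and 1.07% with many unrelated genes. No window of Flt3, Cd209a, Zbtb46, Batf3 or Irf8 was shared. Flt3 overlaps a gene annotated on the opposite strand, Irf8 and Zbtb46 each overlap another gene on the same strand, and the use of strand in counting is not given in the sources used here.

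RefSeq promoter windows were found for 9 of the 10 members, Clec10a being the one with no entry. The 250 bases before the annotated start were searched on both strands for GGAAGT, a core of the ETS family to which PU.1 belongs. They were also searched for TGANTCA, the AP-1 site used by BATF family dimers, for GAAANNGAAA, an interferon-stimulated response element, and for GGAANNGAAA, an ETS-IRF composite element that can overlap the first motif. GGAAGT occurred in the windows of 6 of the 9 (Flt3, Xcr1, Cd209a, Itgax, Batf3 and Siglech, 66.7%), and in 19.7% of the 32851 windows in the RefSeq table. TGANTCA occurred in the windows of Itgax and Zbtb46, and in 6.75% of all windows, while the other 2 motifs (2.98% and 2.30% of all windows) matched none of these 9. The Zbtb46 window (chr2:181424389-181424638, minus strand) lies inside the annotated gene (chr2:181387762-181459426). The Batf3 window (chr1:191098164-191098413, plus strand) also lies inside its gene (chr1:191097847-191108945). Matches in these 2 windows are therefore not upstream of the outermost annotated 5′ end. The windows below (GRCm38.p6, RefSeq, 5′ to 3′ in the direction of the gene) are those of the cDC2 lectin whose transcript differed most between tissues among members with an entry, of the growth factor receptor and of the paired cDC1 receptors. Capitals mark GGAAGT or its reverse complement, and Clec9a has no match:
Cd209a (chr8:3748985-3749234, minus strand): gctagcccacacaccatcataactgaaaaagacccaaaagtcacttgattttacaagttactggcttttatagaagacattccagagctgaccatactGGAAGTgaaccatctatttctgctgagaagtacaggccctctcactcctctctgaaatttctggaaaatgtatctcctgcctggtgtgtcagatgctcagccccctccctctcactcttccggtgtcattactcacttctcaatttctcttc
Flt3 (chr5:147400490-147400739, minus strand): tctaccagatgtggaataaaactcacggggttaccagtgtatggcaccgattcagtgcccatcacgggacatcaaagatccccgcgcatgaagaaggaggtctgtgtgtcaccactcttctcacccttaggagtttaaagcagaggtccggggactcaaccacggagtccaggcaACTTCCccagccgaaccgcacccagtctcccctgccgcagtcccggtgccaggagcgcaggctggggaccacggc
Xcr1 (chr9:123862030-123862279, minus strand): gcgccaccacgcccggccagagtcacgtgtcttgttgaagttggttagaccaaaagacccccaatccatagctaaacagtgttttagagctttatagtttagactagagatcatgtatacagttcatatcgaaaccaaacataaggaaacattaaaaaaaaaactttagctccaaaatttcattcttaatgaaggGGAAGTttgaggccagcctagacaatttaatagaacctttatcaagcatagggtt
Clec9a (chr6:129408612-129408861, plus strand): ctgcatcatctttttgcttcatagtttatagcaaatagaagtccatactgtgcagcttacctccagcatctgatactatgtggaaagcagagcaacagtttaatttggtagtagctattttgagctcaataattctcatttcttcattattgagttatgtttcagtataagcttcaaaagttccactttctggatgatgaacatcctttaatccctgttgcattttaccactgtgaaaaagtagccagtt

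The largest fitted tissue differences among the members were those of the cDC2 lectins, which were most abundant in VAT. Cd209a, a C-type lectin of the DC-SIGN family, stood at 256 and 250 CPM (counts per 1000000, scaled by edgeR's TMM) in the libraries labelled WT and KO of VAT. It stood at 68.9 and 25.2 CPM in WT and KO SAT on chow, at 27.4 and 22.2 in SAT on HFD, and at 28.2 and 18.7 in muscle. Both VAT libraries were thus above all the others, and the ranges of SAT on chow, SAT on HFD and muscle overlapped. In an edgeR quasi-likelihood fit over all 8 libraries with genotype as a term, Cd209a rose in VAT over SAT on chow by 2.56 on the log2 scale (SE 0.40, Benjamini-Hochberg adjusted p = 0.0148). It was lower in muscle than in VAT by the same test, with a log2 change of -3.49 (SE 0.414, adjusted p = 0.00812). The Cd209a calls rested on single libraries: without the VAT library labelled KO the VAT over SAT change was 2.26 (adjusted p = 0.0924), and without the one labelled WT it was 2.94 (adjusted p = 0.0619), both by edgeR. The muscle over VAT call was likewise lost without the VAT library labelled KO (edgeR adjusted p = 0.0744) or without either muscle library (0.0917 without KO and 0.0663 without WT).

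Clec10a (MGL1), a galactose-type lectin of cDC2 and of tissue macrophages, had 478 and 470 CPM in VAT labelled WT and KO. Its values were 52.1 and 28.4 CPM in SAT on chow, 20.6 and 17.9 in SAT on HFD, and 18.3 and 11.3 in muscle. The order was therefore VAT, SAT on chow, then SAT on HFD and muscle, whose values overlapped. The VAT over SAT change on chow was 3.62 (SE 0.353, adjusted p = 0.00476) and the muscle over VAT change was -5.05 (SE 0.378, adjusted p = 0.00458), and neither call was lost in any alternative tried. These were the only 2 members called in a tissue comparison of the edgeR fit over all 8 libraries and the 16971 genes averaging 10 counts or more. Of all 16971 genes tested, 3.31% were called higher and 1.74% lower in VAT than in SAT, 0.884% higher and 1.05% lower in muscle than in VAT, and 1.11% higher and 0.147% lower in muscle than in SAT. In muscle over SAT 0 members were called by edgeR (213 genes in all), 5 members had an unadjusted p under 0.05, and the lowest adjusted p was that of Clec10a (log2 change -1.43, SE 0.328, adjusted p = 0.0975). DESeq2 called 2 members there, Clec10a (-1.33, adjusted p = 0.00336) and Xcr1 (-2.17, adjusted p = 0.0158). The same 2 were called by edgeR when every gene with a count was fitted, at -1.44 (adjusted p = 0.0124) and -2.29 (adjusted p = 0.0497). Without KO SAT on chow, edgeR called Clec10a (-1.68, adjusted p = 0.0184) and Cd209a (-1.42, adjusted p = 0.0250).

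**Figure D1:**
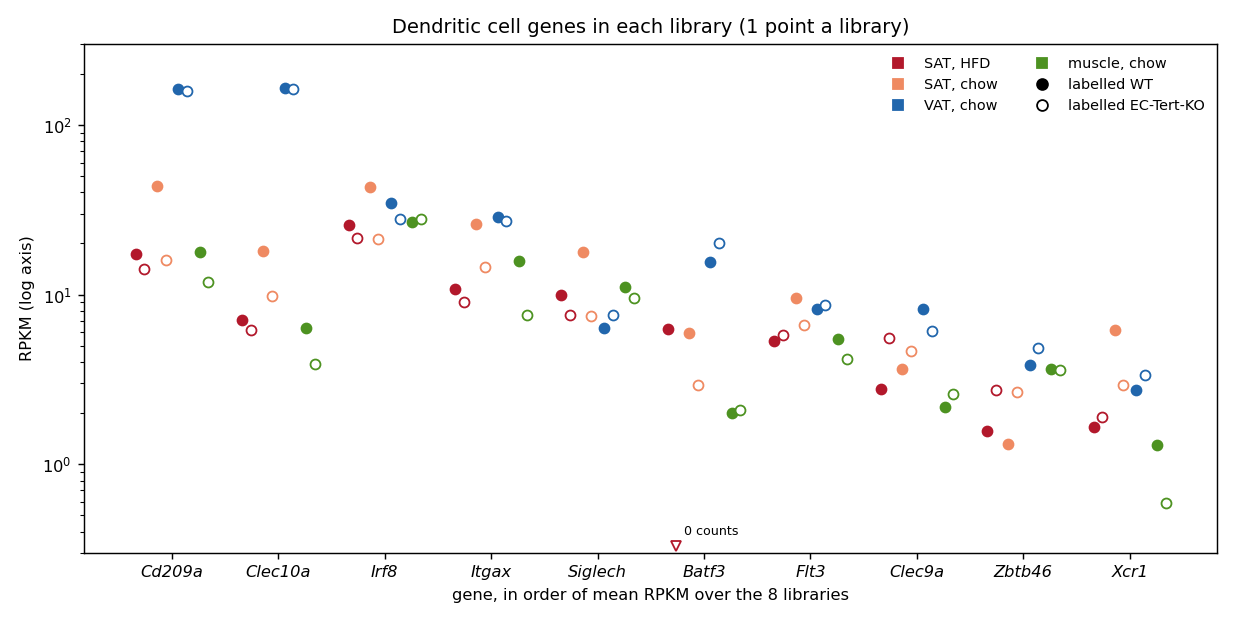
RPKM of each dendritic cell gene (log axis), 1 point per library, coloured by tissue and diet, filled for WT and open for EC-Tert-KO labels; the triangle marks 0 counts. Cd209a and Clec10a stand between 158 and 165 RPKM in both VAT libraries and at most at 43.5 in the others, while the levels of Irf8 and Flt3 in VAT lie within the range of the other tissues.

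Macrophage markers moved with this difference. All 11 macrophage markers tested were called higher in VAT than in SAT on chow, and their summed level was 7804 and 7929 CPM in the VAT libraries against 168 to 640 CPM in the other 6. Of these markers Timd4 was at 0 counts in both SAT libraries on HFD, and none was at 0 elsewhere. Clec10a and Cd209a tracked that sum over the 8 libraries with Pearson r of 0.98 for each, a description over libraries of which some share a tissue. Endothelial markers were called higher in 9 of 12 cases in the same comparison, and all 8 B cell and all 8 T cell markers were called lower. The part of other cell types in the lectin difference was not tested, and in bulk samples more cells of a type cannot be told apart from more RNA per cell. Clec10a counts per 1000 Ptprc counts were 324 and 380 in VAT and 8.90 to 24.8 elsewhere, and Cd209a counts per 1000 Ptprc counts were 174 and 201 in VAT and 10.2 to 32.9 elsewhere. Both ranges were separate on that scale too. Of the cDC2-related genes outside the members, 5 of 9 tested were called higher in VAT than in SAT, against 3.31% of all genes. Their list had a median log2 change of 2.04, against -0.08 over all genes. The called genes were Itgam, Clec12a, Cd209d, the Clec10a neighbour Mgl2 (3.64, adjusted p = 0.0100) and Sirpa (2.22, adjusted p = 0.0132). Sirpa is a receptor for CD47 that monocytes and macrophages carry as well. Klf4 of the same list was not called (1.94, adjusted p = 0.0710). All these adjusted p-values are from edgeR, and the part of macrophages in the calls was not tested.

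**Figure D2:**
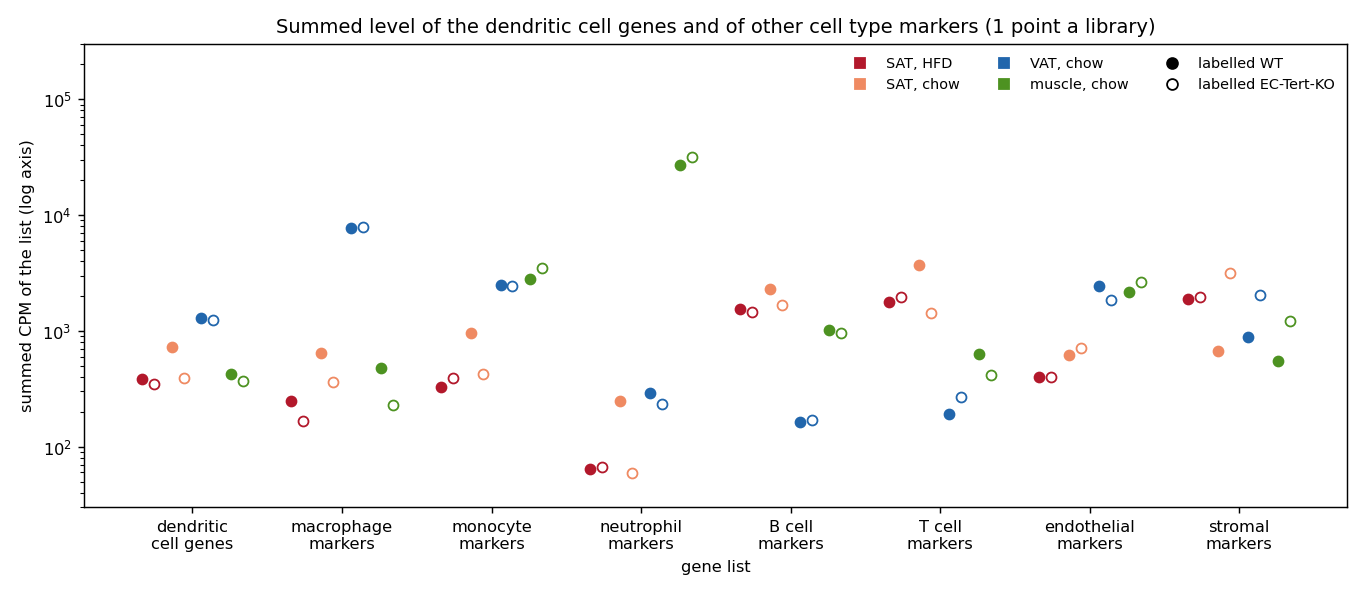
Summed CPM of the dendritic cell genes and of marker lists of other cell types (log axis), 1 point per library, colours and fills as for the plot of RPKM by gene. The VAT libraries have the highest macrophage sums (7804 and 7929 CPM) and the lowest B cell sums (165 and 169), and the muscle libraries the highest neutrophil sums (27158 and 31437).

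No cDC1 gene among the members was called in a tissue comparison of that fit. Xcr1, the receptor for the chemokine XCL1, had 27.4 CPM in WT SAT on chow, 13.02 in its KO partner, 12.2 and 14.9 in the VAT libraries labelled WT and KO, 7.37 and 8.39 in WT and KO SAT on HFD, and 5.76 and 2.61 in muscle. The muscle libraries were the lowest 2 of the 8, and SAT on chow and VAT overlapped. The fitted change of Xcr1 was -2.27 in muscle over SAT (SE 0.621, adjusted p = 0.156) and -0.48 in VAT over SAT (SE 0.600, adjusted p = 0.713). Clec9a, which binds actin exposed on dead cells, was highest in VAT at 27.0 and 19.97 CPM and lowest in muscle at 7.15 and 8.55, with 12.03 and 15.3 in SAT on chow and 9.18 and 18.4 in SAT on HFD. Its muscle over VAT change of -1.61 (SE 0.515) had an adjusted p of 0.203. All these adjusted p-values are from the edgeR fit.

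The transcription factors of the cDC1 lineage differed from each other in level and spread. Irf8 was even: it ranged from 150 to 305 CPM, highest in WT SAT on chow and lowest in KO SAT on chow (150) and KO SAT on HFD (151). Its other values were 181 in WT SAT on HFD, 243 and 196 in VAT, and 188 and 197 in muscle, so no tissue stood apart, and no adjusted p of Irf8 in the tissue and diet comparisons was below 0.81. Batf3 had 24.7 and 32.0 CPM in VAT, 9.49 and 4.70 in SAT on chow, 9.93 and 0 in SAT on HFD, and 3.21 and 3.33 in muscle. Its VAT values were above all the others, yet the fitted change in VAT over SAT, 2.26, had an SE of 1.41 (adjusted p = 0.430), and the SE included the library with 0 counts. When every gene with a count was fitted, edgeR called Batf3 in VAT over SAT (2.21, adjusted p = 0.0481) and in muscle over VAT (-3.15, adjusted p = 0.00228). Without both SAT libraries on HFD, a fit chosen after seeing the data, muscle over VAT was called for Batf3 with a log2 change of -3.08 (edgeR adjusted p = 0.0402). Per unit length, the mean over libraries was 28.5 RPKM for Irf8, 6.84 for Batf3, 4.46 for Clec9a and 2.57 for Xcr1.

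By the ratio of the highest to the lowest library, Irf8 (2.03) and Flt3 (2.30) varied least of the 10 members, and Clec10a (42.3) most among those with a count in every library. Flt3, the FLT3 ligand receptor, had 58.9 and 40.8 CPM in WT and KO SAT on chow, 51.1 and 53.7 in VAT, 32.8 and 35.9 in SAT on HFD, and 33.9 and 25.6 in muscle. Both muscle values and both HFD values were below all 4 values of SAT and VAT on chow, and no difference was called (lowest edgeR adjusted p = 0.335, in muscle over VAT). Itgax, encoding the integrin CD11c, had 125 and 69.7 CPM in SAT on chow, 138 and 130.5 in VAT, 51.6 and 43.5 in SAT on HFD, and 75.2 and 36.6 in muscle. Its muscle over VAT change of -1.35 (SE 0.341) had an adjusted p of 0.103 in edgeR, and was called by DESeq2 (-1.38, adjusted p = 0.00498) and by edgeR on every gene with a count (-1.32, adjusted p = 0.0260). Zbtb46, a zinc finger factor of conventional dendritic cells and of endothelium, was ordered in another way: 32.6 and 40.9 CPM in VAT, 30.9 and 30.5 in muscle, and 11.2 to 23.1 in the 4 SAT libraries. All 4 VAT and muscle values were above the SAT values, as were those of the endothelial markers (1857 to 2623 summed CPM against 396 to 706). Zbtb46 correlated with that endothelial sum at r = 0.77 over the 8 libraries, higher than any other member. Its VAT over SAT change was 1.18 (SE 0.398, edgeR adjusted p = 0.149, DESeq2 adjusted p = 0.0452), and without KO SAT on chow it was 1.52 (edgeR adjusted p = 0.0488).

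Siglech, the pDC lectin, was the only member whose fitted level was higher in muscle than in VAT. It had 60.5 CPM in WT SAT on chow and 25.2 in its KO partner, 33.7 and 25.5 in SAT on HFD, 37.3 and 32.4 in muscle, and 21.4 and 25.7 in VAT. The muscle over VAT change was 0.53 (SE 0.418, edgeR adjusted p = 0.759), and the VAT over SAT change of -0.76 (SE 0.425) had an adjusted p of 0.372. Without KO SAT on chow the latter was -1.29 (edgeR adjusted p = 0.0451). Of 14 further pDC genes tested, 4 were called lower and 2 higher in VAT than in SAT, against 1.74% and 3.31% of all genes. Those lower were Ly6d (-4.23, adjusted p = 0.00969), Ccr9, Spib and Pacsin1, of which Ly6d and Spib are also B cell genes, and those higher were Tlr7 and Pld4 (1.69, adjusted p = 0.0280). B cell markers were lower in VAT in the same comparison, as given above, and their part in these calls was not tested.

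**Figure D3:**
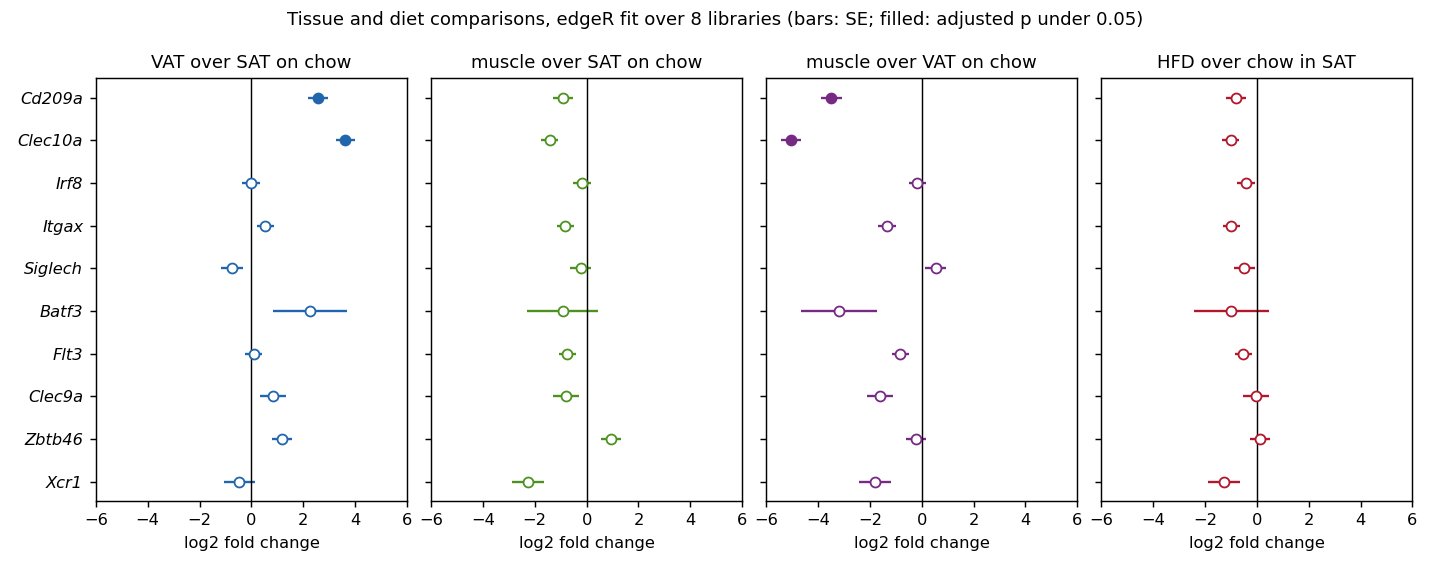
Log2 change of each gene in the tissue and diet comparisons of the edgeR fit over 8 libraries, bars being 1 SE and filled points those with an adjusted p under 0.05. Only Cd209a and Clec10a are filled, at 2.56 and 3.62 in VAT over SAT and at -3.49 and -5.05 in muscle over VAT.

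For the whole list, 7 of 10 members had a positive fitted change in VAT over SAT on chow, with a median of 0.67 against -0.08 over all genes tested, and 8 of 10 when DESeq2 size factors replaced TMM, since Irf8 then turned from -0.01 to 0.13. In muscle 9 of 10 were negative against VAT (median -1.48, all genes 0.02) and 9 of 10 against SAT (median -0.81, all genes -0.09). The exceptions were Siglech against VAT and Zbtb46 against SAT. In muscle over SAT the medians of other leukocyte lists were -0.66 (pan-leukocyte), -0.76 (macrophage), -1.07 (B cell), -1.70 (natural killer, NK, cell) and -2.28 (T cell). Those of monocyte and neutrophil markers were 1.08 and 7.79. In muscle over VAT they were -4.64 (macrophage), -2.39 (NK cell), 0.02 (pan-leukocyte), 0.82 (monocyte), 1.26 (T cell), 2.76 (B cell) and 7.86 (neutrophil). Differences between the lists were not tested.

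The diet comparison asked whether HFD altered these transcripts in SAT. With edgeR 0 members and 0 genes of 16971 were called, 0.0% higher and 0.0% lower. At an unadjusted p under 0.05 there were 1354 genes, 2 of them members, and DESeq2 called 260 genes and 0 members. The 2 members were Clec10a, with a log2 change of -1.01 (SE 0.327, edgeR adjusted p = 0.583), and Itgax, with -0.98 (SE 0.338, edgeR adjusted p = 0.588). In total 9 of 10 members had a negative change, with a median of -0.66 against -0.24 over all genes, and 8 of 10 with DESeq2 size factors, where Clec9a turned from -0.01 to 0.13. Medians of other lists were negative too: -0.46 (pan-leukocyte), -1.28 (macrophage), -0.77 (monocyte), -1.66 (neutrophil), -0.36 (B cell), -0.42 (T cell), -0.41 (NK cell) and -0.99 (endothelial). Both HFD libraries are sparse, as described above. The 10 members summed to 387 and 346 CPM in WT and KO on HFD and to 730 and 395 CPM on chow, so the spread lay mainly in the WT library on chow.

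The genotype comparison asked how Tert loss in the Tie2e lineage was accompanied by changes of these transcripts in sorted cells. Because each pair holds 1 library per genotype, differences within a pair have no replicate check, and the intervals given cover counting error only. A member was called when it differed at least 2-fold with an interval that did not span 0. In SAT on chow 8 of 10 members were lower in KO (median log2 change -0.94, all genes -0.0043), 5 were called lower and 1 was called higher. In the same pair 19.0% of 16908 genes were called lower and 25.7% higher, so with TMM the 5 in 10 lower stood above that background and the 1 in 10 higher below it. The WT library of this pair had the lowest TMM factor of the 8 (0.877) and the fewest genes counted outside SAT on HFD (19802). With DESeq2 size factors 2 members were called lower against 16.2% of genes, and with library totals 2 against 13.1%, shares near the background, and the 2 were Cd209a and Siglech in both cases.

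Cd209a differed most in SAT on chow, with 1140 counts in WT and 419 in KO (log2 change -1.45, interval -1.61 to -1.29). Siglech had 1001 and 418 counts (-1.26, interval -1.43 to -1.10) and Xcr1 had 453 and 216 (-1.07, interval -1.31 to -0.84). Irf8, with 5037 and 2495 counts (-1.02, interval -1.09 to -0.95), and Batf3, with 157 and 78 (-1.01, interval -1.42 to -0.61), were just past 2-fold. Clec10a (-0.87), Itgax (-0.84) and Flt3 (-0.53) were lower without reaching 2-fold. Clec9a, of the same subset as Xcr1, was not lower: it had 199 and 254 counts, a log2 change of 0.35 (interval 0.07 to 0.62). Zbtb46 had 186 and 375 counts, a log2 change of 1.005 (interval 0.75 to 1.27), and was the member called higher. The direction of all 10 held with each scaling, but the calls at the edge did not: scaling by library totals, which moved the median of all genes by 0.23, or by DESeq2 size factors (0.11) left Xcr1, Irf8 and Batf3 uncalled, and a prior count of 5 left 0 called higher. Of all genes called in this pair 57.5% were higher in KO with TMM and 69.6% with library totals.

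Markers of other cells differed in the same pair. In WT and KO SAT on chow, T cell markers summed to 3738 and 1415 CPM, macrophage markers to 640 and 360, B cell markers to 2321 and 1682 and pan-leukocyte markers to 7889 and 5100, while stromal markers summed to 674 and 3134 with 6 of 6 called higher. Their part in the member differences was not tested. Ptprc itself did not follow the pan-leukocyte sum, with 2096 and 2479 CPM in WT and KO. Against Ptprc the 10 members amounted to 348 counts per 1000 in WT and 160 in KO. Against the pan-leukocyte sum they fell less, as the members summed to 730 and 395 CPM and the pan-leukocyte markers to 7889 and 5100. The size of the difference relative to leukocyte transcripts therefore depended on the gene or genes chosen.

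**Figure D4:**
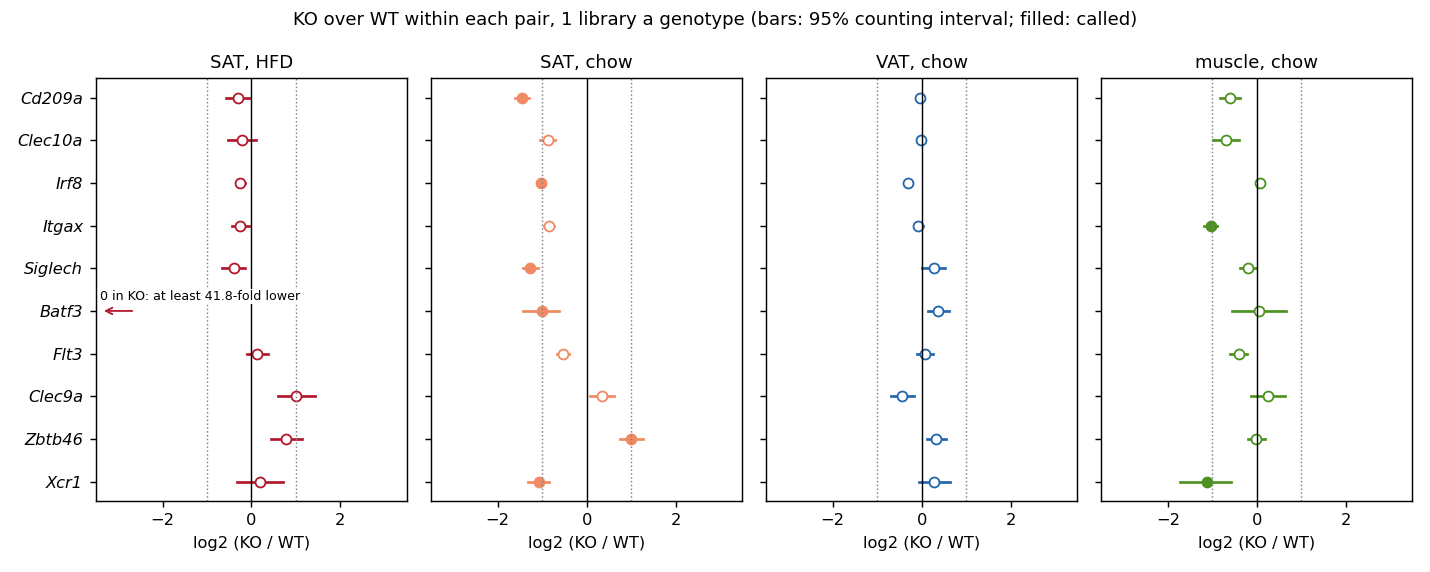
Log2 change of KO over WT within each pair, 1 library a genotype, with 95% counting intervals; dotted lines mark 2-fold and filled points are called. In SAT on chow 5 members lie at or beyond the lower line, and in VAT all 10 lie between the lines.

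In the other pairs few members were called. In SAT on HFD 1 member was called lower (background 16.6% of 15839 genes) and 0 higher (background 17.7%). The 1 was Batf3, with 66 counts in WT and 0 in KO, which is at least 41.8-fold lower against a floor of 3 counts. Both libraries of this pair are sparse, as described above, and 8.81% of genes of similar WT count were at 0 in the KO library. Clec9a had 61 and 232 counts there, a log2 change of 0.998 (interval 0.59 to 1.43) that fell just under 2-fold and was called with library totals. Zbtb46 had 89 and 292 counts (0.79, interval 0.44 to 1.15). The remaining 7 members lay between -0.40 (Siglech) and 0.19 (Xcr1).

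In muscle 2 members were called lower (background 5.68% of 16967 genes) and 0 higher (background 8.3%). Xcr1 had 95 and 36 counts (-1.13, interval -1.74 to -0.58) and Itgax 1241 and 505 (-1.04, interval -1.19 to -0.89). With library totals 0 were called lower, with 59.4% of all called genes higher under TMM and 70.6% under library totals, and that scaling moved the median of all genes by 0.17. The remaining 8 members lay between -0.69 (Clec10a) and 0.26 (Clec9a). Macrophage markers summed to 474 CPM in WT and 230 in KO muscle, and the part of this difference was not tested. In VAT 0 members were called in either direction (backgrounds 7.52% higher and 6.5% lower of 16439 genes), and the differences between the library labelled KO and the library labelled WT ran from -0.43 (Clec9a) to 0.37 (Batf3). For Cd209a and Clec10a, the VAT-high lectins, the counting intervals were narrow and spanned 0, at -0.12 to 0.04 and -0.08 to 0.03.

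Across the 4 pairs 0 members were called by edgeR with tissue and diet as a block, and by the same test 1 gene of 16971 was called higher (0.00589%) and 0 lower (0.0%). There were 279 genes at an unadjusted p under 0.05, of which 1 was a member, and DESeq2 called 19 genes and 0 members. Itgax had the lowest unadjusted p (log2 change -0.55, SE 0.239, adjusted p = 0.9999) and was lower in KO in 4 of 4 pairs. Cd209a (-0.59, SE 0.272) and Clec10a (-0.45, SE 0.230) were also lower in 4 of 4, and the counting interval spanned 0 for all 3 in VAT and for Clec10a in SAT on HFD too. In the same fit 8 of 10 members had a negative change (median -0.42, all genes 0.02), the exceptions being Clec9a (0.29, SE 0.360) and Zbtb46 (0.52, SE 0.281). Without the SAT on HFD and VAT pairs, a choice made after seeing the data, 0 members were called and the median was -0.59. Over all 4 pairs the medians of other leukocyte lists were negative too. They were -0.27 (pan-leukocyte), -0.54 (macrophage), -0.13 (monocyte), -0.52 (neutrophil), -0.07 (B cell), -0.37 (T cell) and -0.67 (NK cell).

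The balance between the lectins of cDC2 and the receptors of cDC1 was described as the ratio of Cd209a plus Clec10a counts to Xcr1 plus Clec9a counts within a library, which needs no scaling between libraries. The ratio was 18.7 (95% counting interval 16.8 to 20.9) and 20.7 (18.8 to 22.7) in the VAT libraries labelled WT and KO. In SAT on chow it was 3.07 (2.81 to 3.36) in WT and 1.89 (1.69 to 2.12) in KO, in SAT on HFD 2.90 (2.33 to 3.64) and 1.5 (1.30 to 1.73), and in muscle 3.61 (3.09 to 4.22) and 2.69 (2.23 to 3.26). Outside VAT the KO library was below its WT partner in 3 of 3 pairs, with intervals that did not overlap in either SAT pair. In SAT on HFD the lectins changed little, at -0.30 for Cd209a and -0.20 for Clec10a (interval -0.52 to 0.11). There Clec9a was at 0.998 and Xcr1 at 0.19 (interval -0.32 to 0.71), so the ratio fell mainly through Clec9a. In SAT on chow and muscle Xcr1 was lower in KO, at -1.07 and -1.13, and Clec9a was at 0.35 and 0.26. Both lectins were lower in KO in all 3 pairs. Macrophage markers, which the lectins tracked as given above, were lower in KO in the same 3 pairs: in WT and KO they summed to 640 and 360 CPM in SAT on chow, 247 and 168 in SAT on HFD and 474 and 230 in muscle, against 7804 and 7929 in VAT. Their part in the ratio was not tested, and no test over replicates was possible within a pair.

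**Figure D5:**
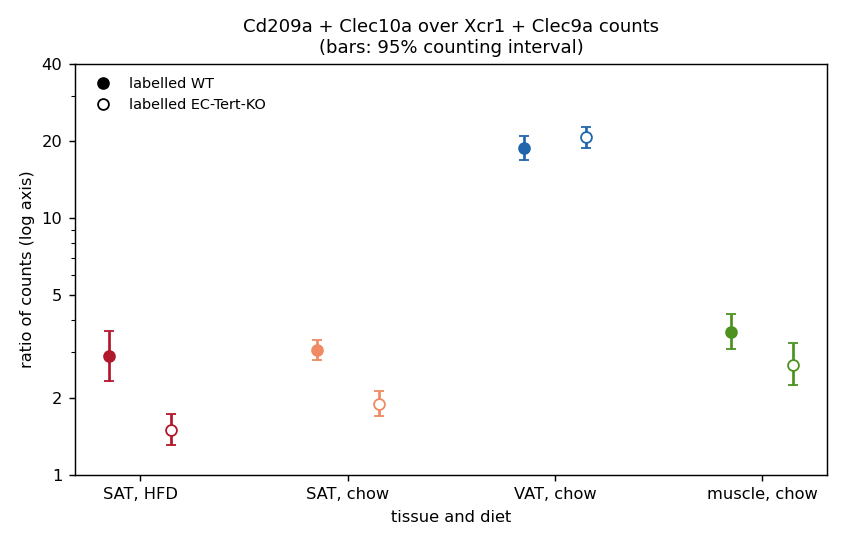
Ratio of Cd209a plus Clec10a counts to Xcr1 plus Clec9a counts in each library (log axis) with 95% counting intervals, filled for WT and open for EC-Tert-KO labels. The VAT libraries lie at 18.7 and 20.7 and the other 6 between 1.5 and 3.61, with the KO point below the WT point in SAT and muscle.

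Other genes of dendritic cells were followed in lists, each named by its 3 most abundant genes per length. MHC class II presentation genes, which load and display peptides to CD4 T cells, were called lower in KO for 7 of 13 in SAT on chow (median -1.01) and for 8 of 13 in muscle (median -1.19), with 0 called higher in either, against the backgrounds of 19.0% and 5.68%. Cd74, the invariant chain, had log2 changes of -0.89 and -1.19 in these pairs, H2-Eb1 -1.01 and -1.48, and H2-Aa -1.11 and -1.5. In SAT on HFD 0 of the 13 were called, and in VAT 1 was called higher. B cells and macrophages transcribe these genes as well. Across pairs 0 of 13 were called by edgeR, and their median change was -0.51. The 1 gene called across pairs, H2-Ea-ps (log2 change 10.7, SE 0.672, edgeR adjusted p = 0.0173), is an MHC class II gene that is transcribed in some haplotypes of laboratory mice and not in that of C57BL/6. It had 0 and 5496 counts in WT and KO SAT on chow, 7 and 14205 in VAT labelled WT and KO, 3 and 2291 in muscle, and 0 in both SAT libraries on HFD. So the 3 chow pairs differed at an MHC class II gene and the HFD pair did not, and its part in the differences of the members or of the MHC class II list was not tested.

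Of 18 genes of mature, migrating dendritic cells tested in SAT on chow, 5 were called higher in KO, a share near the 25.7% of all genes, and 1 lower, against 19.0%. Their median log2 change was -0.044. Ccr7, the chemokine receptor that guides dendritic cells and T cells to lymph nodes, had 3662 counts in WT and 20657 in KO (2.49, interval 2.44 to 2.54), and Cd83, a maturation marker, had 2217 and 10909 (2.29, interval 2.23 to 2.36). Cd274, encoding PD-L1, had a log2 change of 0.89. In muscle the same 3 genes were lower in KO, by -0.89 for Ccr7, -0.63 for Cd83 and -1.05 for Cd274. Across pairs 0 of 18 were called by edgeR.

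Of the further cDC1 genes, 4 of 11 were called lower and 1 higher in KO SAT on chow, where 19.0% of all genes were called lower and 25.7% higher. Naaa, a lysosomal amidase enriched in cDC1, was lower (-1.48) and the factor Nfil3 higher (2.31), while Id2 had -0.86. Of the further cDC2 genes, 3 of 9 were called higher and 3 lower, with Klf4, a factor also of monocytes and endothelium, at 1.67, Mgl2 at -0.96 and Sirpa at -0.53. Of the further pDC genes, 5 of 14 were called lower and 1 higher, with Ly6d at -1.60, Bst2, the virus-tethering protein tetherin, at -1.24 and Pld4 at -0.89. Of the DC development genes 3 of 16 were called in each direction, near the share of all genes lower and under that higher. Csf1r, the receptor for M-CSF that macrophages carry, was at -1.11, Csf2ra, a GM-CSF receptor chain, at 0.03 and the factor Ikzf1 at 0.01. In VAT over SAT on chow, 7 of 16 development genes were called higher and 1 lower in edgeR, against 3.31% and 1.74% of all genes. Among them were Csf1r (3.63, adjusted p = 0.00580), Csf2ra (2.23, adjusted p = 0.0149) and, lower, Ikzf1 (-1.39, adjusted p = 0.0482). All 11 macrophage markers were called higher in the same comparison, and their part in these calls was not tested.

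How the members varied with each other was described by Pearson correlation of log2 CPM over the 8 libraries, some of which share a tissue, and whose depths differ. Cd209a and Clec10a had r = 0.99, and 0.91 over the 6 libraries outside VAT. Flt3 and Xcr1 had r = 0.94, and 0.98 outside VAT, where Siglech and Irf8 also had r = 0.98 (0.57 over all 8). Clec9a followed Xcr1, the other cDC1 receptor, less closely at r = 0.54. Zbtb46 was the member that ran against the rest outside VAT, with r of -0.76 to Cd209a and to Clec10a and -0.69 to Flt3.

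Among genes averaging 10 counts or more, the 3 most like each member by the same measure were listed. For Zbtb46 they were Akap12, Meis1 and Amotl1 (r = 0.99, 0.98 and 0.98). For Clec10a they were Ckb, Fcrls and Cyth4 (0.99 each), and for Cd209a Pepd, Cyth4 and Apoe (0.996, 0.991 and 0.991). Itgax was closest to Rad23b, Itm2c and Cd74 (0.99, 0.98 and 0.97), and Flt3 to Myo1g, Cd180 and Lgals3bp (0.98, 0.97 and 0.97). Xcr1 was closest to Tex264, Lgals3bp and Pld3 (0.96, 0.95 and 0.95), Clec9a to Dnajc16, Klri2 and Zswim1 (0.96, 0.95 and 0.95), and Batf3 to S1pr5, Ly96 and Ptger3 (0.99 each). Batf3 had 0 counts in KO SAT on HFD, where its value came from the prior count alone. How far its r values rest on that library was not tested. Siglech was closest to Sec13, Tomm40 and Psma6 (0.99, 0.98 and 0.98), while the genes closest to Irf8 were less like it, 2810002D19Rik, Vti1b and Rtf2 (0.93 each).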

How the data were processed

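The authors deposited whole-number read counts per Ensembl gene for 8 libraries, with no normalization. The submitters' processing notes name HISAT2 2.0.5 and the builds GRCm38 and mm10. The counting program and use of strand are not given in the sources used here. The labels give a SMARTER kit and column RNA isolation, and the study's methods give Trizol. Groups came from tissue, diet and strain in the labels.

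Counts were scaled by TMM in edgeR 4.0.16 (R 4.3.3; factors 0.877 to 1.14), and RPKM used the deposited gene lengths. Across libraries, glmQLFit and glmQLFTest (robust) were run on the 16971 genes averaging 10 counts or more, with tissue and diet as 4 levels and genotype as a term, leaving 3 residual degrees of freedom, and Benjamini-Hochberg adjustment at 0.05. Nothing states that the libraries are from separate animals, so p-values measure the spread between these samples only. With 1 library per genotype, tissue and diet, the residual spread is how far KO over WT differences vary between pairs. It is not variation between replicates. Within a pair, log2 ratios of CPM used a prior count of 0.5 and the exact conditional binomial 95% interval for genes averaging 10 counts or more over both libraries. The floor was 3 counts. Alternatives were DESeq2 1.42.0, other size factors, priors and filters, a fit without block or genotype, and leaving out libraries or pairs. Scripts were tested on simulated data.

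The named genes were the 10 members, Tert, the 3 most abundant genes per length of each of 6 further dendritic cell lists, and the 3 genes most correlated with each member. H2-Ea-ps, Timd4, Tek, Ptprc, the cDC2-related genes Itgam, Clec12a and Cd209d and the pDC genes Ccr9, Spib, Pacsin1 and Tlr7 were named after their values were seen. The members, lists and motifs were chosen with earlier results of these data known. Shared windows and overlaps came from GENCODE M21.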

Additional observations from a re-analysis of the deposited data

Results flagged for a closer look

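For 3 members the KO over WT log2 change had counting intervals on opposite sides of 0 in 2 pairs, and each difference below was not tested, because a pair holds 1 library per genotype. In each case VAT was 1 of the 2 pairs, where Tert does not separate the labels. Clec9a was higher in KO by 0.998 in SAT on HFD and 0.35 in SAT on chow, against -0.43 in VAT, so that the differences between pairs were 1.43 and 0.78. Batf3 was at -1.01 in SAT on chow and 0.37 in VAT, a difference of -1.38, and at -5.39 in SAT on HFD when its 0 was set to the floor of 3 counts, a difference of -5.76. Siglech was at 0.27 in VAT, against -0.40 in SAT on HFD, -1.26 in SAT on chow and -0.20 in muscle, with differences of -0.67, -1.53 and 0.47, the last taken as VAT minus muscle.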

How the results depend on the processing

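Each pair holds 1 library per genotype, so intervals cover counting error only, and members near 2-fold changed sides with the scaling. Within pairs, library totals gave 1 member called higher in SAT on HFD, 2 lower in SAT on chow and 0 lower in muscle, DESeq2 size factors gave 2 and 1 lower in SAT on chow and muscle, and a prior of 5 gave 0 higher in SAT on chow. With every gene that had a count, 3953 genes were called lower in SAT on HFD, 2717 lower in VAT, and 2753 higher and 1580 lower in muscle. In the fits, all genes with a count, which changes the adjustment, gave 42 genes across pairs, 2100 in VAT over SAT, 971 in muscle over SAT, 1159 in muscle over VAT and 317 for HFD, with 2 members in muscle over SAT and 4 in muscle over VAT. DESeq2 gave 19, 2305, 1058, 1258 and 260 genes in the same order, and 2 members in muscle over SAT. Without the block 0 genes were called across pairs, without the SAT on HFD and VAT pairs 23, and without a genotype term 339 in muscle over SAT and 542 in muscle over VAT. Leaving out 1 library or pair, genes called ranged from 0 to 2 across pairs, 93 to 3449 in VAT over SAT, 37 to 1761 in muscle over SAT, 41 to 75 in muscle over VAT and 0 to 308 for HFD, and members from 1 to 4, 0 to 2 and 1 to 2 in the 3 tissue comparisons. Changes near 0 reversed. Irf8 in VAT over SAT was 0.13 with DESeq2 or its size factors, 0.024 without both SAT libraries on HFD, and -0.39 to 0.51 leaving out 1 library. Clec9a for HFD was 0.13 with DESeq2 or its size factors, 0.017 without a genotype term, and -0.56 to 0.51 leaving out 1 library. Leaving out 1 library also gave ranges in VAT over SAT of -0.13 to 0.38 for Flt3 and -0.91 to 0.023 for Xcr1. In muscle over SAT the ranges were -0.74 to 0.47 for Siglech and -0.57 to 0.34 for Irf8, and in muscle over VAT -0.62 to 0.081 for Zbtb46 and -0.50 to 0.11 for Irf8. For HFD they were -0.087 to 0.50 for Zbtb46, -9.48 to 0.39 for Batf3, -0.98 to 0.24 for Siglech and -0.79 to 0.13 for Irf8. The cause of these changes was not tested beyond the fewer genes or samples in each.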
